A study of Homo sapiens with 11 samples.

Results

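Glycolysis splits glucose into pyruvate in the cytosol and yields ATP without oxygen. The 10 genes described here cover uptake, most of the enzymatic steps, and the reduction of pyruvate to lactate: SLC2A1, HK2, GPI, PFKP, ALDOA, GAPDH, PGK1, ENO1, PKM and LDHA. They were chosen by symbol as a named pathway, and all 10 were found among the 23609 gene symbols of the deposited tables, each at 1 locus. Many tumour lines, of lung origin among them, turn glucose into lactate even where oxygen is present, and most genes of the pathway are targets of the hypoxia-inducible factor HIF-1. GAPDH and other members are also common reference genes in expression studies.

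RNA was sequenced in 11 libraries from A549, a widely used cell line grown from a human lung adenocarcinoma. The cells had received the solvent DMSO or cigarette smoke condensate (CSC, the particulate matter of smoke collected in a solvent), the latter at 20 µM as the labels write its dose. DMSO was given for 48 hours (n = 2, numbered replicates 2 and 3) or 2 weeks (n = 3), and CSC for 48 hours (n = 3) or 2 weeks (n = 3). Nothing in the labels says that replicates came from separate cultures, so p-values measure the spread between these libraries, which may be technical. All groups are the same cell line, grown on plates.

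Levels are FPKM, read fragments scaled by transcript length and library total, so levels of different genes can be compared. The sum over genes was 338507 to 484053 FPKM in a library, highest in CSC 2 weeks replicate 1, and the 10 members made up 0.862% of that sum in CSC 48 hours replicate 3 and 1.05% to 1.14% in the other 10 libraries. On the second principal component of all genes, CSC 2 weeks replicate 2 stood between the DMSO and CSC groups of its time, at 1.35 against 21.2 to 22.4 in DMSO and -16.0 and -14.1 in the other CSC libraries. That library also had the narrowest deposited bounds for all 10 members. All 5 epithelial markers were present, with KRT8 at 573 to 1745 FPKM. Of the 6 alveolar type II markers, 5 never reached an FPKM of 1, surfactant gene SFTPC among them. All 4 endothelial markers, 5 of 6 fibroblast markers and 3 of 5 leukocyte markers also stayed under 1 in all libraries. The summed epithelial markers, largely keratins, ranged from 1922 to 2250 FPKM in DMSO and from 1225 to 1594 in CSC at 48 hours, and from 3059 to 3554 in DMSO and from 2096 to 2769 in CSC at 2 weeks. Their part in any result below was not tested. In bulk RNA, fewer cells with a transcript and less of it per cell cannot be told apart.

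The promoters of PGK1 and LDHA are shown because they are textbook targets of HIF-1, whose subunit gene HIF1A and whose other targets are described below. Both stretches end just before the start of the gene in the deposited tables. They come from RefSeq (GRCh38.p14 promoter table) and were placed on GRCh37 (hg19) by exact match, at chrX:77359495-77359665 for PGK1 and chr11:18415860-18415935 for LDHA, both on the plus strand. Capitals mark ACGTG, a core bound by HIF-1, and GCGTG, a core bound by the aryl hydrocarbon receptor (AHR), on either strand. AHR is a sensor of smoke constituents. Such short strings do not tell which factor binds. In LDHA the capital letters form a palindrome and count as a match on both strands. The LDHA stretch is only the first 76 bases of a window of 250. That whole window held 5 matches of ACGTG, of which 2 are in the printed part.
PGK1: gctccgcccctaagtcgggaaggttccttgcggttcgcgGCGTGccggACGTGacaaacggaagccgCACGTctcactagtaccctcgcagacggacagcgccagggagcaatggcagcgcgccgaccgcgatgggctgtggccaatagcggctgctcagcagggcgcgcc
LDHA: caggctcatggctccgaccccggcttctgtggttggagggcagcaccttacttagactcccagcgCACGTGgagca
The 10 members had 17 RefSeq promoter windows of 250 bases before a transcript start. ACGTG, searched on both strands, occurred in 10 of the 17, belonging to 7 members, while 18.5% of all 35093 windows held it. GCGTG, searched the same way, occurred in 6, belonging to 5 members, while 32.2% of all windows held it. The only windows of SLC2A1 and of PKM held neither. A match describes these letters and shows no binding.

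Uptake of glucose is the first step. SLC2A1 encodes GLUT1, the main facilitative glucose transporter of many tumour cells, and lies on hg19 at chr1:43391046-43424847. It stood at 47.0 and 38.0 FPKM in DMSO and at 40.9, 36.1 and 41.7 in CSC at 48 hours. At 2 weeks it stood at 63.8, 62.6 and 55.9 in DMSO and at 43.2, 56.1 and 41.2 in CSC. The groups overlapped at both times. At 2 weeks the overlap came from CSC replicate 2, at 56.1 FPKM, just above the lowest DMSO library, while the other CSC libraries lay well below all 3 DMSO libraries. The means at 2 weeks were 60.7 ± 4.23 (SD, n = 3) in DMSO and 46.8 ± 8.10 (SD, n = 3) in CSC.

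SLC2A1 was the member with the smallest p for CSC against DMSO at 2 weeks, with a log2 difference of -0.38 ± 0.13 (SE). Its adjusted p of 0.112 in limma, which shares the spread over all 11 libraries, missed the 0.05 threshold. Without CSC 2 weeks replicate 2 the difference was -0.52 with an adjusted p of 0.0202 in limma. That fit called 1844 of all genes, against 676 in the main fit. It was the only 1 of the 11 fits without a library that called SLC2A1, whose limma adjusted p reached 0.322 in another. At 48 hours the difference was -0.10 ± 0.15 (SE, limma adjusted p = 0.936), and the effects at the 2 times did not differ past the threshold (-0.29 ± 0.20, SE, limma adjusted p = 0.771). Between 48 hours and 2 weeks in DMSO, SLC2A1 had the largest log2 difference of the members tested, 0.52 ± 0.15 (SE), with all 3 libraries at 2 weeks above both at 48 hours and a limma adjusted p of 0.144.

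**Figure D1:**
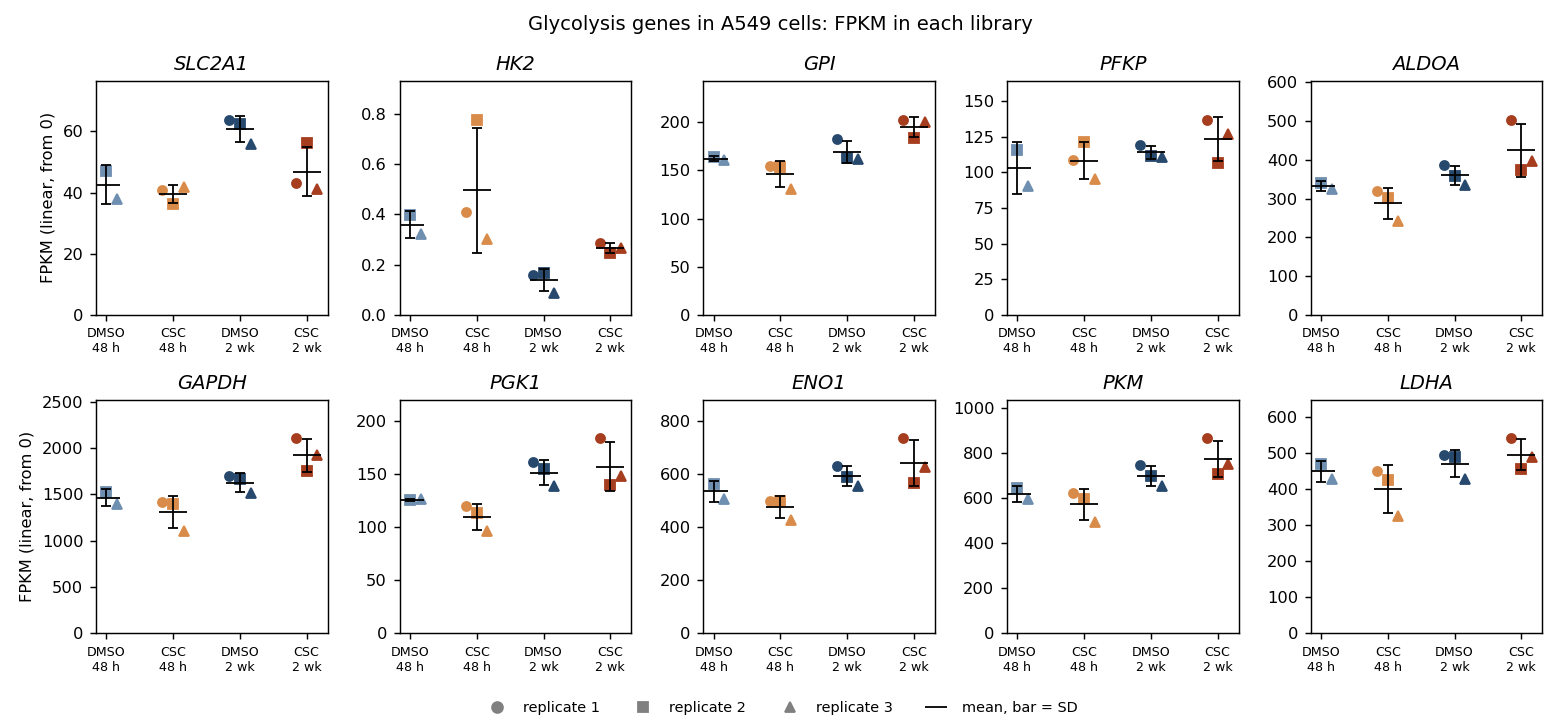
FPKM (linear axis from 0) of the 10 glycolysis genes in each library, by treatment and time, with a symbol for the replicate number and the mean and SD drawn in black. SLC2A1 is lower in 2 of 3 CSC libraries at 2 weeks, while most other members share 1 pattern, lowest in CSC 48 hours replicate 3 and highest in CSC 2 weeks replicate 1.

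Phosphorylation by a hexokinase traps glucose in the cell. HK2, the inducible hexokinase gene (chr2:75059782-75120481), was nearly absent, at 0.396 and 0.320 FPKM in DMSO and 0.409, 0.775 and 0.302 in CSC at 48 hours. At 2 weeks it stood at 0.159, 0.168 and 0.0876 FPKM in DMSO and at 0.287, 0.247 and 0.267 in CSC. Every CSC library lay above every DMSO library at 2 weeks, as in 20.3% of the tested genes, at levels whose deposited bounds spanned 30.4% to 73.1% of the value to either side. HK2 never reached an FPKM of 1 and did not enter the tests, so 9 of the 10 members were tested. In a fit without that filter its log2 differences for CSC against DMSO were 0.19 ± 0.17 (SE) at 48 hours and 0.27 ± 0.15 (SE) at 2 weeks, on a scale that compresses such low values, with limma adjusted p-values of 0.857 and 0.381.

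HK1 and HKDC1 were expressed at higher levels than HK2. HK1, the widely expressed hexokinase, made up 39.7% to 57.4% of the summed FPKM of HK1, HK2 and HKDC1 across libraries, and HKDC1, a further hexokinase gene, 41.6% to 58.7%. HK1 stood at 13.2 ± 1.26 FPKM (SD, n = 3) in DMSO and 16.0 ± 1.46 (SD, n = 3) in CSC at 2 weeks. HK2 never held more than 3.15% of that sum.

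The next enzymes rearrange and commit the sugar. GPI, glucose-6-phosphate isomerase (chr19:34855645-34893318), stood at 164 and 160.4 FPKM in DMSO and at 155, 153 and 131 in CSC at 48 hours. In the 2-week libraries it stood at 183, 163 and 162 in DMSO and at 202, 184 and 200.2 in CSC. All CSC libraries lay below DMSO at 48 hours and above DMSO at 2 weeks, by a narrow margin each time. PFKP, the platelet form of phosphofructokinase (chr10:3109712-3178997), ranged from 90.3 to 137 FPKM over the 11 libraries, and its groups overlapped in all 4 pairwise comparisons. It made up 77.7% to 84.6% of the FPKM of the 3 phosphofructokinase genes in these cells.

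ALDOA, the aldolase that splits the sugar into triose phosphates (chr16:30064411-30081741), stood at 342 and 324 FPKM in DMSO and at 319, 303 and 242 in CSC at 48 hours. The values at 2 weeks were 386, 358 and 335 in DMSO and 503, 374 and 396 in CSC. CSC lay below DMSO in all libraries at 48 hours, and the groups overlapped at 2 weeks. ALDOA held 99.8% to 99.9% of the summed FPKM of the 3 aldolase genes.

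GAPDH, which oxidises glyceraldehyde 3-phosphate (chr12:6643585-6647537), was the most abundant member. Its levels at 48 hours were 1528 and 1401 FPKM in DMSO and 1423, 1399 and 1107 in CSC. Those at 2 weeks were 1701, 1667 and 1514 in DMSO and 2104, 1748 and 1925 in CSC. The groups overlapped at 48 hours and not at 2 weeks, where CSC was higher. The annotation (GENCODE v44 on GRCh37) lists 65 GAPDH pseudogenes, more than for any other member, and the deposited tables name none of them, so how reads from such copies were assigned is not known here.

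The ATP-yielding enzymes followed. PGK1, phosphoglycerate kinase (chrX:77359666-77382324), stood at 125 and 127 FPKM in DMSO and at 120.0, 113 and 96.0 in CSC at 48 hours. At 2 weeks it stood at 161, 155 and 138 in DMSO and at 183, 140.1 and 148 in CSC. CSC was below DMSO at 48 hours in all libraries and overlapped it at 2 weeks. PKM, pyruvate kinase (chr15:72491370-72523727), ranged from 496 FPKM in CSC 48 hours replicate 3 to 866 in CSC 2 weeks replicate 1 and overlapped between treatments at both times. ENO1, the enolase between them (chr1:8921059-8939151), ranged from 427 to 735 FPKM in the same pair of libraries. The deposited FPKM of PGK1 and of ENO1 lay above its own upper bound in 8 of 11 libraries, so the bounds do not give the error of these estimates.

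LDHA turns pyruvate into lactate and regenerates the NAD+ that GAPDH needs (chr11:18415936-18429765). It stood at 471 and 429 FPKM in DMSO and at 449, 426 and 326 in CSC at 48 hours. At 2 weeks it stood at 495, 491 and 428 in DMSO and at 541, 456 and 491 in CSC. The groups overlapped at both times.

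No member passed the test for CSC against DMSO at 48 hours, where limma called 0.288% of the 12506 genes tested in either direction at an adjusted p under 0.05. None of the 9 had an unadjusted p under 0.05 either, as 8.49% of all genes had. Of the 9 members, 8 had a negative log2 difference, from -0.22 ± 0.17 (SE) in ALDOA, and PFKP alone was positive at 0.07 ± 0.15 (SE). The members' median was -0.17 and that of all genes tested 0.00. In 4 members, GPI, ALDOA, PGK1 and ENO1, every CSC library lay below both DMSO libraries, as 11.8% of all tested genes did. GPI, ALDOA, GAPDH, PGK1, ENO1, PKM and LDHA had their lowest level of all 11 libraries in CSC 48 hours replicate 3, and without that library the members' median was -0.07. The 95% intervals of the members' differences reached from -0.58 to 0.41.

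No member passed at 2 weeks either, where 5.41% of the tested genes were called. By unadjusted p, 1 of the 9, SLC2A1, was under 0.05, as were 24.6% of all genes. The other 8 members had differences between 0.05 in PGK1 and 0.24 ± 0.15 (SE) in GAPDH, with limma adjusted p-values from 0.272 to 0.853, and the members' median of 0.11 was close to the 0.09 of all genes tested. GPI and GAPDH were higher in every CSC library than in every DMSO library, as were 20.3% of all genes. The other scalings moved all genes as well as the members. The members' median minus that of all genes was 0.02 as deposited and 0.01, 0.00, 0.00 and -0.14 by median of ratios, with a common sum, without RMRP and RPPH1, and by quantiles. With the libraries scaled by the median of ratios, to a common sum, to a common sum without the abundant nuclear RNAs RMRP and RPPH1, or by quantiles, PGK1 and LDHA were negative under all 4, while GPI was positive and SLC2A1 negative, between -0.55 and -0.46, under all 4. No member was called under any of those scalings.

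**Figure D2:**
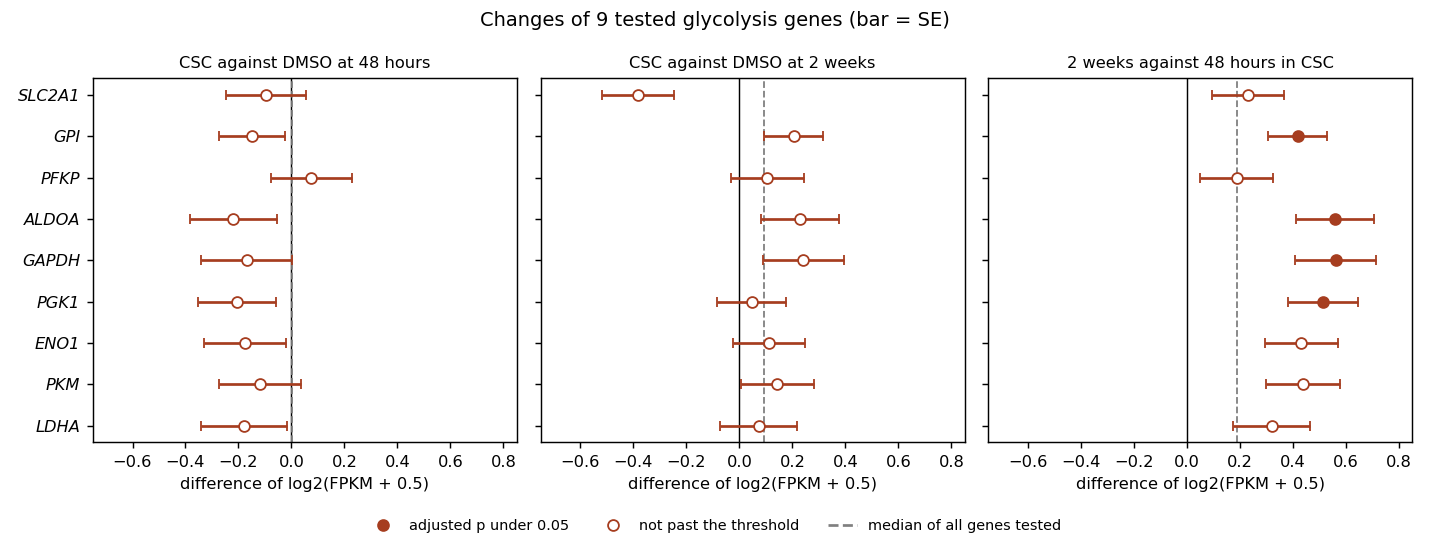
Differences of log2(FPKM + 0.5) of the 9 tested members in 3 comparisons, with the SE as a bar, filled points where the limma adjusted p was under 0.05, and a dashed line at the median of all genes tested. SLC2A1 at -0.38 stands apart from the other 8 members in the comparison of CSC with DMSO at 2 weeks, and the filled points (GPI, ALDOA, GAPDH and PGK1) appear only in the comparison of times within CSC, with the FPKM as deposited.

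The effect of CSC at 2 weeks did not differ from that at 48 hours past the threshold for any member, where limma called 0.04% of all genes. The differences ran from -0.29 in SLC2A1 to 0.45 ± 0.22 (SE) in ALDOA, whose limma adjusted p was 0.702. By unadjusted p, 0 of the 9 were under 0.05, against 876 of the 12506 genes tested. This comparison uses the same libraries as those above.

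The duration of treatment was the other axis. The titles do not say whether libraries of the 2 durations were grown or sequenced together. Duration and batch therefore cannot be told apart. In DMSO, no member was called between 48 hours and 2 weeks, where 0.768% of all genes were. With the FPKM as deposited all 9 differences were positive, from 0.06 ± 0.12 (SE) in GPI to the 0.52 of SLC2A1, with a median of 0.15. Under median of ratios, a common sum, a common sum without RMRP and RPPH1, and quantiles, 7, 6, 5 and 5 of the 9 were positive, and GPI and LDHA were negative under all 4, while SLC2A1 stayed between 0.35 and 0.42. SLC2A1, PGK1 and PKM were higher in every library at 2 weeks, as were 28.8% of all genes.

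In CSC, 4 members were higher at 2 weeks than at 48 hours with the FPKM as deposited, where 12.3% of all genes were called higher. They were ALDOA, GAPDH, GPI and PGK1, with log2 differences of 0.56 ± 0.15, 0.56 ± 0.15, 0.42 ± 0.11 and 0.51 ± 0.13 (SE) and limma adjusted p-values of 0.0342, 0.0361, 0.0346 and 0.0308. In 7 of the 9, all but SLC2A1 and PFKP, every library at 2 weeks lay above every library at 48 hours, as in 28.4% of all genes. The members' median was 0.43, and all genes together had also shifted upward, by a median of 0.19.

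None of these 4 calls held under another scaling of the libraries. The range of GAPDH over the other 4 scalings was 0.00 to 0.38 and that of ALDOA 0.09 to 0.38, and 0 members were called under each of them. The split of all called genes moved as well, from 89.9% higher as deposited to 43.1% by median of ratios, 15.5% with a common sum, 9.30% without RMRP and RPPH1, and 38.0% by quantiles. Relative to the median of all genes, the members' median was 0.24 as deposited and 0.23, 0.22, 0.21 and -0.01 under those 4 scalings in the same order. The count of members called was 0 without CSC 48 hours replicate 2 or 3, DMSO 2 weeks replicate 2 or CSC 2 weeks replicate 1 or 3, and 6 without CSC 2 weeks replicate 2. It was 1 without DMSO 2 weeks replicate 1 and 2 without CSC 48 hours replicate 1. It was also 0 when only the libraries compared entered the fit. The calls of all genes moved too, from 144 without CSC 2 weeks replicate 1 to 2627 without CSC 2 weeks replicate 2. Without CSC 48 hours replicate 3, where 0 members were called, 1450 genes were called higher and 139 lower.

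**Figure D3:**
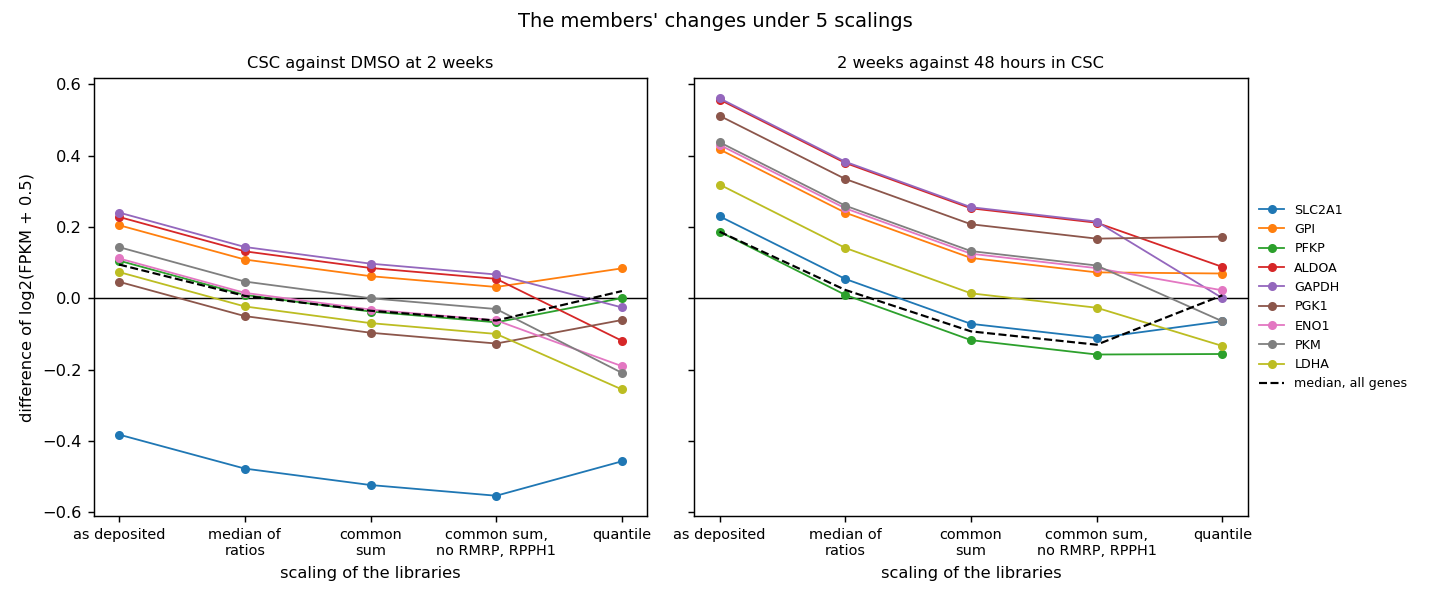
Differences of log2(FPKM + 0.5) of the 9 tested members (coloured lines) and the median of all genes tested (dashed) under 5 scalings of the libraries, for CSC against DMSO at 2 weeks and for 2 weeks against 48 hours in CSC. SLC2A1 stays between -0.55 and -0.38 in the first comparison, while in the second GAPDH goes from 0.56 as deposited to 0.00 by quantiles and the median of all genes from 0.19 to 0.01.

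With the FPKM as deposited, the members varied together across libraries, with the exception of SLC2A1 and, less so, PFKP. Over the 11 libraries, which share their scaling, the Pearson correlations of log2 values among GPI, ALDOA, GAPDH, PGK1, ENO1, PKM and LDHA were 0.87 to 0.98. PFKP correlated with those 7 at 0.64 to 0.78 and SLC2A1 with the other 8 tested members at 0.10 to 0.50. By the same measure, the 5 genes outside the lists closest to the members' mean profile were VCP, ATP6V0D1, DDB1, PPHLN1 and CFL1, each at 0.98. VCP is an ATPase of protein quality control and CFL1 the actin-severing protein cofilin. These correlations describe 11 libraries of 4 groups, were not tested and were not taken under another scaling.

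Ratios taken within a library do not depend on a factor that rescales the whole library. The log2 level of SLC2A1 minus the mean of the other 8 members was -2.61, -2.55 and -2.61 in DMSO at 2 weeks and -3.38, -2.70 and -3.27 in CSC at 2 weeks. All CSC libraries were below all DMSO libraries, with replicate 2 the nearest to DMSO. The means were -2.59 ± 0.03 (SD, n = 3) and -3.12 ± 0.37 (SD, n = 3), with p = 0.1 in a two-sided exact permutation test, the smallest p that 3 against 3 libraries allow, and 0.2 after adjustment over 6 such tests. At 48 hours the means were -2.96 and -2.92 (exact permutation p = 1, where 0.2 is the smallest that 2 against 3 allow). SLC2A1 was also the member with the smallest p at 2 weeks in these same libraries. The ratio is therefore no independent support for that difference. Such ratios of the other members were not tested, and the adjustment does not cover them.

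LDHA made up a smaller part of the lactate dehydrogenase transcripts in each CSC library at 2 weeks than in any DMSO library of that time. LDHA favours lactate formation, and its partner LDHB the reverse reaction. LDHA held 49.5%, 49.8% and 50.1% of the summed FPKM of LDHA, LDHB and LDHC in DMSO and 43.4%, 48.1% and 47.1% in CSC at 2 weeks. The groups did not overlap (exact permutation p = 0.1, adjusted 0.2). That adjustment covers 6 tests, of only the 3 measures that are plotted, and not the shares of the other families. At 48 hours the share was 54.9% and 53.1% in DMSO and 52.5%, 53.7% and 50.1% in CSC (exact permutation p = 0.4). LDHB itself stood at 475 ± 42.9 FPKM (SD, n = 3) in DMSO and 584 ± 109.7 (SD, n = 3) in CSC at 2 weeks, with overlapping libraries and a log2 difference of 0.28 ± 0.15 (SE, limma adjusted p = 0.268). PFKP held 80.7% of the phosphofructokinase FPKM in DMSO, at 77.9% and 83.4%, and 81.4% in CSC at 48 hours (exact permutation p = 0.8). At 2 weeks it held 82.1% ± 0.59 (SD, n = 3) in DMSO and 79.7% ± 1.84 (SD, n = 3) in CSC (exact permutation p = 0.1, adjusted 0.2). Those groups again did not overlap, though the lowest DMSO library, at 81.48%, lay close to the highest CSC library, at 81.38%. The shares of other members, which were not tested, did not all move this way. ENO1 held 96.3% to 96.8% of the enolase FPKM in DMSO and 97.3% to 97.4% in CSC at 2 weeks, and PKM 99.908% to 99.958% and 99.961% to 99.972% of the pyruvate kinase FPKM, both without overlap. The rest of the pyruvate kinase FPKM is PKLR, which lay at 0.183 to 0.602 FPKM over all libraries, too low to enter the tests. SLC2A1 held 71.6% ± 0.43 (SD, n = 3) of the FPKM of 7 glucose transporter genes in DMSO and 71.8% ± 0.85 (SD, n = 3) in CSC at 2 weeks.

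**Figure D4:**
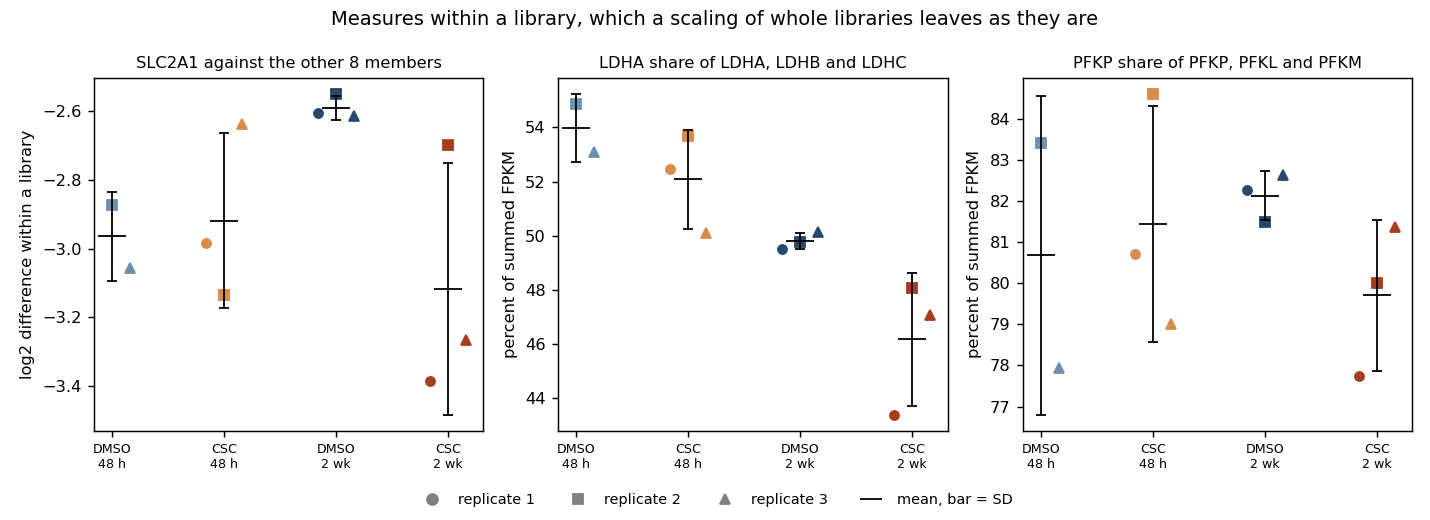
Measures taken within each library (axes do not start at 0): the log2 difference of SLC2A1 from the mean of the other 8 tested members, and LDHA and PFKP as percent of the summed FPKM of their gene families, by group with the mean and SD. At 2 weeks the CSC libraries lie below the DMSO libraries in all 3 panels, with CSC 2 weeks replicate 1 farthest away. The ENO1 and PKM shares of their families, not drawn, lie above those of DMSO at 2 weeks.

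Of the genes around the pathway, 3 that serve transport and control were called lower in CSC than in DMSO at 2 weeks. Each of these calls was lost in some of the fits without a library. Among the 25 other glycolysis genes (isoforms of the same steps and the steps not covered by the members), 18 were tested and 1 was called lower at 2 weeks, where 2.4% of all genes were, with none higher. It was SLC2A3, which encodes the high-affinity transporter GLUT3. It stood at 7.31, 8.38 and 6.57 FPKM in DMSO and at 2.71, 4.45 and 3.19 in CSC at 2 weeks, a log2 difference of -1.02 ± 0.24 (SE, limma adjusted p = 0.0323). At 48 hours it stood at 8.90 and 8.62 FPKM in DMSO and at 2.68, 2.77 and 6.13 in CSC, a difference of -1.18 ± 0.27 (SE) that missed the threshold (limma adjusted p = 0.114). SLC2A3 was lower in every CSC library at both times, and at 2 weeks 9.84% of all genes were. The call at 2 weeks was lost, with limma adjusted p-values from 0.0784 to 0.133, when any of the 3 DMSO libraries or CSC replicate 1 or 3 at 2 weeks was left out, and without CSC 48 hours replicate 3 the difference at 48 hours was -1.52 with a limma adjusted p of 0.00256.

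The other named genes of that list missed the threshold at 2 weeks. ENO3, the muscle enolase, differed by -0.49 ± 0.15 (SE, limma adjusted p = 0.0759). TPI1, which interconverts the triose phosphates, differed by 0.40 ± 0.16 (SE, limma adjusted p = 0.147) and PFKL, the liver phosphofructokinase, by 0.38 ± 0.15 (SE, limma adjusted p = 0.152). The list's median was 0.05, against 0.09 for all genes.

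Among 12 tested regulators of glycolytic flux, 1 was called lower at 2 weeks, where 2.4% of all genes were, and none higher. HIF1A, the oxygen-regulated subunit of HIF-1, stood at 108, 108 and 94.8 FPKM in DMSO at 2 weeks. In CSC at 2 weeks it stood at 66.7, 61.7 and 64.2 FPKM, lower in every library, as 9.84% of all genes were. The log2 difference was -0.68 ± 0.13 (SE, limma adjusted p = 0.0115). The call was lost without DMSO 2 weeks replicate 1 or 2 or CSC 2 weeks replicate 3, at limma adjusted p-values of 0.0538 to 0.0567. At 48 hours its difference was -0.34 ± 0.15 (SE, limma adjusted p = 0.550). HIF-1 is controlled largely at the level of this protein, which was not measured. MLXIP, a glucose-sensing transcription factor, differed by -0.33 ± 0.10 (SE, limma adjusted p = 0.0754), and PFKFB4, which makes an activator of phosphofructokinase, by -0.54 ± 0.16 (SE, limma adjusted p = 0.0758). MLX, the partner of MLXIP, differed by 0.31 ± 0.12 (SE, limma adjusted p = 0.142).

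Among 17 tested genes of pyruvate and lactate handling, 1 was called lower at 2 weeks, where 2.4% of all genes were, and none higher. SLC16A3, which encodes the lactate exporter MCT4, stood at 36.3, 32.2 and 32.1 FPKM in DMSO at 2 weeks. In CSC at 2 weeks it stood at 24.6, 28.4 and 21.7 FPKM, also lower in every library, as 9.84% of all genes were. The log2 difference was -0.43 ± 0.11 (SE, limma adjusted p = 0.0415), and 2 of the 11 fits that left out a library kept it under the threshold, those without CSC 48 hours replicate 3 and without CSC 2 weeks replicate 2. Calls of SLC16A3 and SLC2A3 were also lost without the filter on low values. At 48 hours it was 26.1 and 27.2 FPKM in DMSO and 21.1, 21.5 and 21.3 in CSC (-0.32 ± 0.12, SE, limma adjusted p = 0.465). BSG, the chaperone of that exporter at the membrane, had its smaller p at 48 hours, with a difference of -0.45 ± 0.16 (SE, limma adjusted p = 0.361). PDHB, a subunit of pyruvate dehydrogenase, differed by 0.44 ± 0.15 (SE, limma adjusted p = 0.108) at 2 weeks, and PDP1, a phosphatase that activates that enzyme, by 0.54 ± 0.19 (SE, limma adjusted p = 0.402) at 48 hours.

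Among 25 tested genes of gluconeogenesis and side branches, 2 were called higher at 2 weeks, where 3.01% of all genes were, and none lower. PHGDH, which diverts 3-phosphoglycerate into serine synthesis, stood at 12.5, 12.3 and 10.9 FPKM in DMSO and at 39.8, 28.0 and 31.1 in CSC, a log2 difference of 1.42 ± 0.23 (SE, limma adjusted p = 0.00467) that held in all 11 fits without a library. At 48 hours it was 15.8 and 16.1 FPKM in DMSO and 16.1, 15.7 and 33.4 in CSC, high in replicate 3 alone. SORD, which turns sorbitol into fructose, differed by 0.58 ± 0.12 (SE, limma adjusted p = 0.0150) at 2 weeks, and 4 of the 11 fits without a library lost the call, those without DMSO replicate 2 or 3 or CSC replicate 1 or 3 of that time. PCK2, the mitochondrial phosphoenolpyruvate carboxykinase, stood at 22.1 ± 1.26 FPKM (SD, n = 3) in CSC and 9.46 ± 1.16 (SD, n = 3) in DMSO at 2 weeks, a difference of 1.18 ± 0.36 (SE, limma adjusted p = 0.0721), and at 31.4 FPKM in CSC 48 hours replicate 3. Without that last library, which is not part of the comparison at 2 weeks, the PCK2 difference stayed at 1.18. Its SE, which limma takes from all libraries, was then 0.11 and its limma adjusted p 6.71e-05. That was the only 1 of the 11 fits without a library that called PCK2 at 2 weeks. GBE1, the glycogen branching enzyme, had its smaller p at 48 hours, with a difference of -0.33 ± 0.12 (SE, limma adjusted p = 0.361). The list's median at 2 weeks was 0.20, against 0.09 for all genes.

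Of the 19 tested hypoxia-inducible genes outside glycolysis, none was called at 2 weeks, and 6 had an unadjusted p under 0.05 in limma, as 24.6% of all genes had. The median of that list was -0.15 and 13 of 19 differences were negative with the FPKM as deposited, against a median of 0.09 over all genes. CA9, a carbonic anhydrase often used as a hypoxia marker, stood at 1.51, 2.76 and 2.27 FPKM in DMSO and at 0.928, 1.15 and 0.468 in CSC at 2 weeks (-0.997 ± 0.28, SE, limma adjusted p = 0.0558). P4HA2, a collagen prolyl hydroxylase, differed by -0.34 ± 0.12 (SE, limma adjusted p = 0.112). NDRG1, a stress-response gene, differed in the other direction by 0.44 ± 0.14 (SE, limma adjusted p = 0.0869), as did MXI1, a MYC antagonist, by 0.45 ± 0.16 (SE, limma adjusted p = 0.112). Whether this list differs from the glycolysis members was not tested. At 48 hours no gene of these 5 lists was called, and 1, 2, 3, 2 and 3 genes, in the order of the lists above, had an unadjusted p under 0.05 in limma, out of 18, 12, 17, 25 and 19 tested, against 8.49% of all genes. Without CSC 2 weeks replicate 2, limma called 1844 genes for CSC against DMSO at 2 weeks, TPI1, PFKL, MLX, BSG, PDHB, CA9 and P4HA2 among them. Without CSC 48 hours replicate 2 or 3, CA9 was called at 2 weeks as well, NDRG1 in the first of these fits and ENO3 in the second.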

How the data were processed

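The 11 libraries were grouped by their titles. Per the labels' protocols, RNA was depleted of ribosomal RNA (Ribo-Zero Gold), sequenced on a HiSeq2000 and aligned to hg19 with TopHat2 2.0.9. The submitters' processing notes also list CASAVA 1.7.1a5. No source used here gives the quantifier, annotation, strand setting or scaling of totals. For each gene and locus the authors deposited an FPKM with lower and upper bounds. Without a known strand setting, reads of antisense or overlapping genes cannot be told apart. FPKM were summed over loci for the 548 symbols with more than 1 locus, and 1 gene with a failed estimate was left out. FPKM are not counts, so no count test was used, and depth in reads is unknown, so the number of libraries and the deposited bounds limit precision. A listed 0 can mean that estimation failed.

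limma 3.58.1 (R 4.3.3, empirical Bayes with trend) was fitted to log2(FPKM + 0.5) in all 11 libraries as 4 groups, over the 12506 genes that reached FPKM 1 in 2 or more libraries. Calls required a Benjamini-Hochberg adjusted p under 0.05. Differences of log2(FPKM + 0.5) understate changes of weakly expressed genes. Members and gene lists were chosen with earlier results of these data known. Named were all 10 members, from each list the 4 genes of smallest p over both CSC comparisons, and the 5 genes most correlated with the members. Alternatives were pseudocounts of 0.1 and 1, no filter or FPKM 5, 4 scalings, the largest locus, a replicate block, only the libraries compared, no trend, robust estimation and leaving out each library.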

Additional observations from a re-analysis of the deposited data

How the results depend on the processing

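No setting called a member for CSC against DMSO at 48 hours, for the difference of the CSC effects or for the DMSO time comparison. For CSC against DMSO at 2 weeks the count was 0 in all settings except without CSC 2 weeks replicate 2, so 0 to 1 over the fits without a library. For 2 weeks against 48 hours in CSC the count of 4 became 0 by median of ratios, with a common sum, with a common sum without RMRP and RPPH1, by quantiles and with only the libraries compared, 1 without the filter, 5 with robust estimation, 6 with the filter at FPKM 5, 6 without the trend, and 0 to 6 over the fits without a library. Of all genes, 1536 of 12506 were called higher in the main fit, 1574 with robust estimation and 1227 without the trend. The filter at FPKM 5 gave 1712 of 8752, and no filter 689 of 19415. The fit with the libraries compared had fewer samples, the fit without the filter more genes, and otherwise the cause was not tested. Same-numbered libraries correlated in their deviations at -0.20 to 0.31 (mean 0.045, 5 of 15 pairs over 0.1). Differently numbered ones correlated at -0.22 to 0.28 (mean -0.022, 6 of 30 pairs over 0.1). These values do not settle whether numbers pair samples. The labels do not say so, and the main fit did not pair them. With a replicate block the member counts were 0, 0, 0, 0 and 6 in the 5 comparisons, and all genes gave 595 higher and 350 lower calls at 2 weeks against 376 and 300.

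In the CSC comparisons below, signs reversed only in differences that were not called. At 2 weeks of CSC against DMSO, median of ratios gave -0.050 in PGK1 and -0.023 in LDHA, and a common sum -0.037 in PFKP, -0.097 in PGK1, -0.032 in ENO1 and -0.070 in LDHA. A common sum without RMRP and RPPH1 gave -0.068 in PFKP, -0.13 in PGK1, -0.062 in ENO1, -0.030 in PKM and -0.10 in LDHA. Quantiles gave -0.12 in ALDOA, -0.026 in GAPDH, -0.061 in PGK1, -0.19 in ENO1, -0.21 in PKM and -0.26 in LDHA. For 2 weeks against 48 hours in CSC, a common sum gave -0.072 in SLC2A1 and -0.12 in PFKP, one without RMRP and RPPH1 -0.11 in SLC2A1, -0.16 in PFKP and -0.027 in LDHA, and quantiles -0.064 in SLC2A1, -0.16 in PFKP, -0.065 in PKM and -0.13 in LDHA. Over the fits without a library, PFKP at 48 hours ran from -0.10 to 0.25, SLC2A1 at 48 hours from -0.25 to 0.055, PHGDH at 48 hours from -0.0082 to 0.53 and PGK1 at 2 weeks from -0.070 to 0.12. All genes called for 2 weeks against 48 hours in CSC numbered 1536 higher and 172 lower as deposited, 184 and 243 by median of ratios, 84 and 458 with a common sum, 70 and 683 without RMRP and RPPH1, 123 and 201 by quantiles, 689 and 100 without the filter, and 49 and 18 with only the libraries compared.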
